A study of Gallus gallus with 10 samples.

Results

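The enzymes and carriers that break down fatty acids in mitochondria and peroxisomes were followed in chicken abdominal fat, as a panel of 35 genes put together by what their proteins do. Every probe set that the array annotation gives to a single one of these symbols was taken. This found 58 probe sets of 32 genes among the 38439 probe sets tested, and the remaining 3 genes (HADHA, ACADM and ETFB) were not analysed here. By compartment the panel held 16 mitochondrial genes with 27 probe sets, 13 peroxisomal genes with 27 probe sets, and 3 genes whose enzymes work in either organelle with 4 probe sets.

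The birds were male broilers of Arbor Acres origin, killed at an age of 49 days, 5 from a fat line and 5 from a lean line that had been bred apart on abdominal fatness and plasma very low density lipoprotein. Within the flock, the fat line birds were those with the most abdominal fat relative to body weight and the lean line birds those with the least, so that line and individual fatness cannot be told apart. Housing and the maize and soya feed were alike for the lines, feed was not restricted while the birds grew, and all birds were fasted before they were weighed and killed, so the tissue is that of fasted birds. RNA from bulk abdominal fat of each bird was hybridised to 1 Affymetrix Chicken Genome Array, so that a line is represented by 5 arrays and the pieces of tissue hold every cell type of the depot.

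Fatty acids are shortened by beta-oxidation in mitochondria and in peroxisomes. Long chains enter the mitochondrion as carnitine esters, carried by the CPT1A, SLC25A20 and CPT2 proteins, and each turn of the spiral there runs through an acyl-CoA dehydrogenase, a hydratase, a hydroxyacyl-CoA dehydrogenase and a thiolase, with the electrons passed to the respiratory chain through the electron transfer flavoprotein. Peroxisomes take up very long and branched chains through ABC transporters such as ABCD3. They start the spiral with an acyl-CoA oxidase that makes hydrogen peroxide, and hand the shortened chains on as carnitine esters. Adipocytes mainly store and release fatty acids, and in birds most new fatty acids are made in the liver and brought to the depot. The roles given for the genes below are those known from mammals.

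MAS5, the Affymetrix summary of the probes of a set, gave 1 linear signal per probe set and array. Each array had been scaled to a trimmed mean of 500.1, and its total signal was 27714343 to 29936208. Fat line 4 stood apart, with a median signal of 276.2 against 185.8 to 234.2 on the other 9 arrays, so some of the values, not all that moved, are also given without it. The scan headers placed the arrays on 3 scan days and 2 scanners. The hybridisation times in the headers were used to infer 4 runs, called wash runs here, a name the headers do not give. Scan day 3 held fat line 1 to 4 with lean line 3 and 5, scan day 1 held fat line 5 with lean line 4, and scan day 2 held lean line 1 and 2 only. Wash run 3 held fat line 1 to 3 with lean line 5, and wash run 4 held fat line 4 with lean line 3. Scanner 2 read the arrays of scan day 3, and scanner 1 read fat line 5 and lean line 1, 2 and 4. The ratio of the 3′ to the 5′ GAPDH control was 0.916 to 1.29 on the 6 arrays of scanner 2. It was 1.36 or more on the 4 arrays of scanner 1, so this ratio was not balanced between the lines. For lean line 4 the log of the fluidics station notes an abort by the user.

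The tissue label was checked against adipocyte markers, which were among the brightest probe sets. FABP4, the fatty acid binding protein of adipocytes, had 44732 to 57201 signal units in the fat line and 47910 to 52286 in the lean line, and the droplet coat gene PLIN1 had 17812 to 26284 and 20838 to 25821 (both picked after their values were seen). Genes of other tissues differed between birds. The mean log2 deviation of 24 skeletal muscle genes was -1.62 to 1.60 in the fat line and -0.91 to 3.03 in the lean line. It was above 0 in fat line 2 (1.60), lean line 3 (2.54) and lean line 5 (3.03) and below 0 in the other 7 birds. The same measure over 23 liver genes was -0.98 to -0.25 in the fat line and -0.60 to 2.37 in the lean line. It was above 0 in lean line 1 (2.37) and lean line 5 (1.67) and in no other bird. Over 9 smooth muscle genes it was -1.10 to 0.00 in the fat line and -0.50 to 1.90 in the lean line. MAS5 gives no signal of 0, so none of these markers can be said to be absent. Muscle and liver oxidise fatty acids too, and their part in the values below was not tested. In bulk tissue, fewer cells of a type and less RNA per cell cannot be told apart.

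No oxidation gene passed the adjusted threshold for a difference between the lines. With limma and Benjamini-Hochberg adjustment over all probe sets, 0 of the 58 probe sets had an adjusted p under 0.05. On the whole array it was 0 of 38439 (0% called). SAM at the study's delta of 0.8 also called 0 on the array. The study itself reported differing genes at this delta, from transcripts called present and with a bird left out. Here every bird and all tested probe sets were kept, and SAM was coded anew rather than run in the study's program. The SAM runs therefore differ in input and in program, and what made their results differ was not tested. The smallest adjusted p of a member was 0.32, that of ACAD11 (limma unadjusted p = 0.00096). At an unadjusted p under 0.05, 6 of the 58 probe sets (10.3%) were higher in the fat line, against 3.38% of all probe sets, and 1 (1.72%) was lower, against 3.99% of all. The 6 higher ones belonged to ACAD11, ABCD3, CROT, CRAT, CPT1A and ACAD9, the last pair through a probe set dimmer than the gene's brightest, and the lower one to ACAD8. In none of the 58 probe sets did all birds of a line lie above all birds of the other, a pattern that 1.39% of all probe sets showed in either direction.

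For counts by gene, the brightest probe set (by mean log2 signal over the birds) stood for the gene. Signals were higher in the fat line for 11 of 16 mitochondrial genes, 8 of 13 peroxisomal genes and 3 of 3 genes of both organelles. Over all 13009 genes of the array the share was 43.9%. The median log2 fold, fat line over lean line, was 0.13 for the mitochondrial genes, 0.06 for the peroxisomal genes and 0.49 for the 3 genes of both, against -0.05 over all genes. With all arrays scaled to the same median, the median was 0.23 for the mitochondrial genes and 0.16 for the peroxisomal genes, against 0.05 over all genes. By the mean in place of the median, the peroxisomal genes were the higher, with 0.10 against 0.06. With the scan day as a block the order of the medians turned, to 0.00 with 8 of 16 mitochondrial genes higher, and 0.18 with 10 of 13 peroxisomal genes higher. That order also turned with the wash run as a block, on scan day 3 alone, and without fat line 4 or lean line 1. The same held with all probe sets of a gene averaged and with the genes of both organelles counted as peroxisomal. The other recalculations kept it.

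**Figure D1:**
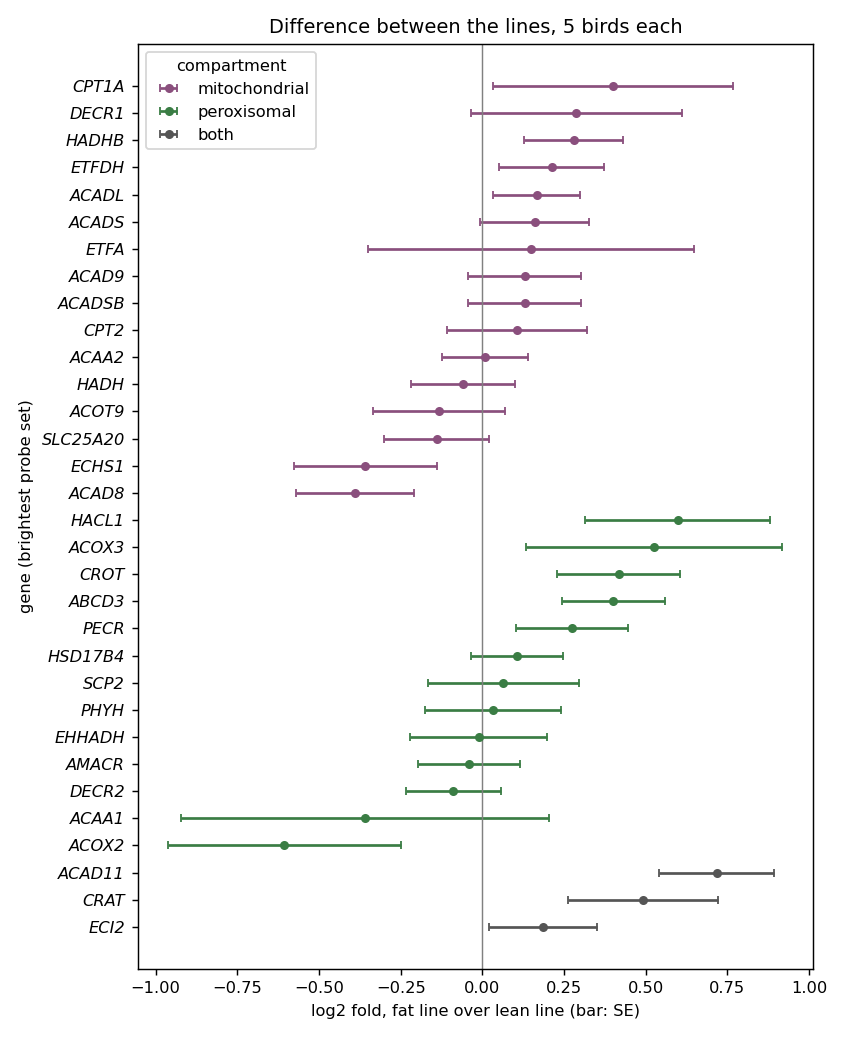
Log2 fold of each of the 32 genes, fat line over lean line, with its standard error from limma (x axis), sorted within the compartments (mitochondrial, peroxisomal, both). The points run from -0.61 for ACOX2 to 0.72 for ACAD11, 22 of 32 lie above 0, and none passed the adjusted threshold.

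The carnitine shuttle gave no shared direction. CPT1A, the outer membrane carnitine palmitoyltransferase that sets the pace of entry, ranged over the 10 birds from 192.2 to 787.3 on its brightest probe set, a 4.10-fold span. Its log2 fold was 0.40 (SE 0.37, limma adjusted p = 0.86). The sign turned with the scan day as a block, to -0.12. A second, dim CPT1A probe set, named here because it was among the 6 counted above, had 65.8, 183.8, 204.0, 185.8 and 131.3 signal units in fat line 1 to 5 and 128.3, 70.2, 35.1, 15.1 and 52.0 in lean line 1 to 5. In that probe set 4 of 5 fat line birds lay above every lean line bird, and the log2 fold was 1.58 (SE 0.59, limma adjusted p = 0.58). The third had a log2 fold of 0.59 (SE 0.66), so that all 3 pointed the same way with very different sizes. The inner membrane transferase CPT2 ranged from 611.1 to 1488, with a log2 fold of 0.11. The carrier SLC25A20 ranged from 1608 to 2900.4, with a log2 fold of -0.14 on its brighter and 0.16 on its dimmer probe set.

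The dehydrogenases of straight chains varied little. ACADL, which acts on long chains, ranged only from 6506 to 9827, and 3 of 5 fat line birds lay above every lean line bird, with a log2 fold of 0.17. ACADS, the short-chain enzyme, ranged from 700.2 to 1104 (log2 fold 0.16). ACAD9, which also helps to assemble respiratory complex I, ranged from 2755 to 5027 (0.13). Its 3 dimmer probe sets gave 0.94, 0.53 and -1.34, the last from signals of 0.8 to 128.2, which are in the dimmest part of the array.

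Of the branched-chain dehydrogenases, ACAD8 was lower in the fat line. It encodes isobutyryl-CoA dehydrogenase of valine breakdown and was the one mitochondrial gene with an unadjusted p under 0.05 on its representative probe set. ACAD8 had 426.9, 559.1, 596.1, 514.7 and 429.5 signal units in fat line 1 to 5, against 596.7, 594.6, 735.3, 720.1 and 649.0 in lean line 1 to 5. Only fat line 3 reached into the range of the lean line, and 4 of 5 fat line birds lay below every lean line bird. The log2 fold was -0.39 (SE 0.18, limma adjusted p = 0.67), and it was -0.41 within scan day 3. Between fat line 5 and lean line 4, the only birds of scan day 1, it was -0.75. ACADSB, which acts on the isoleucine product, ranged from 1299.8 to 2408, with a log2 fold of 0.13.

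The later mitochondrial steps pointed in different directions. HADHB, the thiolase subunit of the trifunctional protein, had 4694, 5287, 4879.6, 3638 and 3599.8 in fat line 1 to 5, against 2984, 3435, 4152, 4116 and 3429.6 in lean line 1 to 5. Fat line 1 to 3 lay above all other birds, while fat line 4 and 5 fell among the lean line birds. Its fold on the log2 scale was 0.28 (SE 0.15, limma adjusted p = 0.74). With the wash run as a block it was 0.12, and fat line 1 to 3 share a wash run with lean line 5, whose signal was 3429.6.

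ECHS1, the short-chain enoyl-CoA hydratase, had 1803, 1678, 1576, 2046 and 1159 in fat line 1 to 5, against 1564, 2101, 2996, 2781 and 1431 in lean line 1 to 5. The lean line was wide, with lean line 3 and 4 high and lean line 1 and 5 within the range of the fat line. On the log2 scale the fold was -0.36 (SE 0.22, limma adjusted p = 0.77). HADH, the hydroxyacyl-CoA dehydrogenase, ranged from 3104 to 5689 and had a log2 fold of -0.06. ACAA2, the mitochondrial thiolase, ranged from 5208 to 6849 with a log2 fold of 0.01, and its highest signal was only 1.31 times its lowest.

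ETFDH, which passes electrons from the flavoprotein to ubiquinone, had 1029, 1045, 1118, 1301 and 934.2 in fat line 1 to 5, against 771.1, 920.9, 1184, 941.9 and 885.2 in lean line 1 to 5. The lines overlapped over most of their range, and the log2 fold was 0.21 (SE 0.16, limma adjusted p = 0.82), or 0.09 with the scan day as a block. ETFA, a subunit of the flavoprotein itself, was measured by dim probe sets only. The brighter one had 31.4 to 67.7 signal units, at the 18th percentile of all probe sets, so these data carry little on it. Of the auxiliary enzymes, DECR1, the mitochondrial dienoyl-CoA reductase needed for polyunsaturated chains, ranged from 405.5 to 1186 with a log2 fold of 0.29, and the thioesterase ACOT9 from 761.5 to 1428 with -0.13.

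The genes of peroxisomal entry and exit were the peroxisomal group with the widest gap between the lines. Their mean deviation per bird was 0.14, 0.45, 0.29, -0.13 and 0.27 in fat line 1 to 5 and -0.36, -0.38, 0.04, -0.07 and -0.25 in lean line 1 to 5, a difference of 0.41 over 2 genes. Fat line 4 alone lay within the range of the lean line.

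ABCD3, the most abundant ABC transporter of the peroxisome membrane in liver, had 1903, 2100.2, 1918, 2109 and 2387 in fat line 1 to 5, against 1339, 1338, 1936, 1985 and 1396 in lean line 1 to 5. Lean line 3 and 4 reached the fat line and the other 3 lean line birds lay far below it. Within each line the highest birds were those of wash run 1 (fat line 5, lean line 4) and wash run 4 (fat line 4, lean line 3). In the fat line the margin was small, with 2109 in fat line 4 against 2100.2 in fat line 2. This was noticed after the values were seen, and whether the run or the birds made it was not tested. The log2 fold of ABCD3 came to 0.40 (SE 0.16, limma adjusted p = 0.60), and to 0.32 with the wash run as a block. It was 0.29 within scan day 3. Between fat line 5 and lean line 4, the only birds of scan day 1, it was 0.27.

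CROT, the carnitine octanoyltransferase that exports shortened chains, had 2686, 3732, 3267, 1663 and 2542 in fat line 1 to 5, against 1898, 1846, 2293, 1917 and 2118 in lean line 1 to 5. Fat line 4 was the lowest of all 10 birds and the other 4 fat line birds lay above every lean line bird. The log2 fold was 0.42 (SE 0.19, limma adjusted p = 0.67) with all birds and 0.59 (SE 0.14, limma adjusted p = 0.25) without fat line 4. With the wash run as a block it was 0.24. Without fat line 4, 2 of the 58 probe sets were higher in the fat line with no overlap, against 1.56% of all probe sets, and 0 were lower with no overlap, against 2.49% of all. They belonged to CROT and ACOX3.

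The 2 acyl-CoA oxidases of the panel pointed in opposite directions on their brightest probe sets. ACOX2, the oxidase of branched chains and bile acid precursors, had 236.5, 263.7, 320.9, 85.4 and 212.7 in fat line 1 to 5, against 281.5, 437.5, 365.4, 226.4 and 291.3 in lean line 1 to 5. The lean line reached higher, and fat line 4 was far below all other birds. Its fold on the log2 scale was -0.61 (SE 0.36, limma adjusted p = 0.76), and it was -0.29 without fat line 4. A dimmer ACOX2 probe set had 79.4, 78.6, 59.9, 16.7 and 20.1 in fat line 1 to 5, against 59.4, 29.4, 24.3, 29.5 and 190.4 in lean line 1 to 5. It gave -0.19 (SE 0.72, limma adjusted p = 0.98), with lean line 5 apart from the rest.

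ACOX3, a second oxidase of branched chains, was measured by 3 probe sets that disagreed. The brightest had 404.5, 202.6, 255.0, 320.7 and 337.5 in fat line 1 to 5, against 292.1, 72.4, 197.1, 320.4 and 273.9 in lean line 1 to 5, with lean line 2 far below the rest. Its log2 fold was 0.53 (SE 0.39, limma adjusted p = 0.81), and 0.15 without lean line 2 and 0.23 with the wash run as a block.

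The next ACOX3 probe set, which the study had picked as a differing gene on these same birds and which is therefore not independent evidence, had 250.9, 219.5, 206.5, 46.6 and 210.4 in fat line 1 to 5, against 152.0, 182.1, 170.1, 136.8 and 148.6 in lean line 1 to 5. Here 4 fat line birds lay above every lean line bird and fat line 4 lay below all of them. On the log2 scale the fold was 0.04 (SE 0.45, limma adjusted p = 0.99) with all birds, and 0.49 (SE 0.26, limma adjusted p = 0.50) without fat line 4. The study, with a bird left out, reported a larger fold for this probe set than either of these. Its RT-PCR of acyl-CoA oxidase, which also used RNA pools of birds not on the arrays, was higher in the fat line but not significant. The last ACOX3 probe set had 92.8, 55.7, 80.7, 473.2 and 166.4 in fat line 1 to 5, against 95.6, 221.3, 281.5, 181.7 and 50.6 in lean line 1 to 5. Here fat line 4 was the highest bird, and the log2 fold was -0.15 (SE 0.61, limma adjusted p = 0.98).

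**Figure D2:**
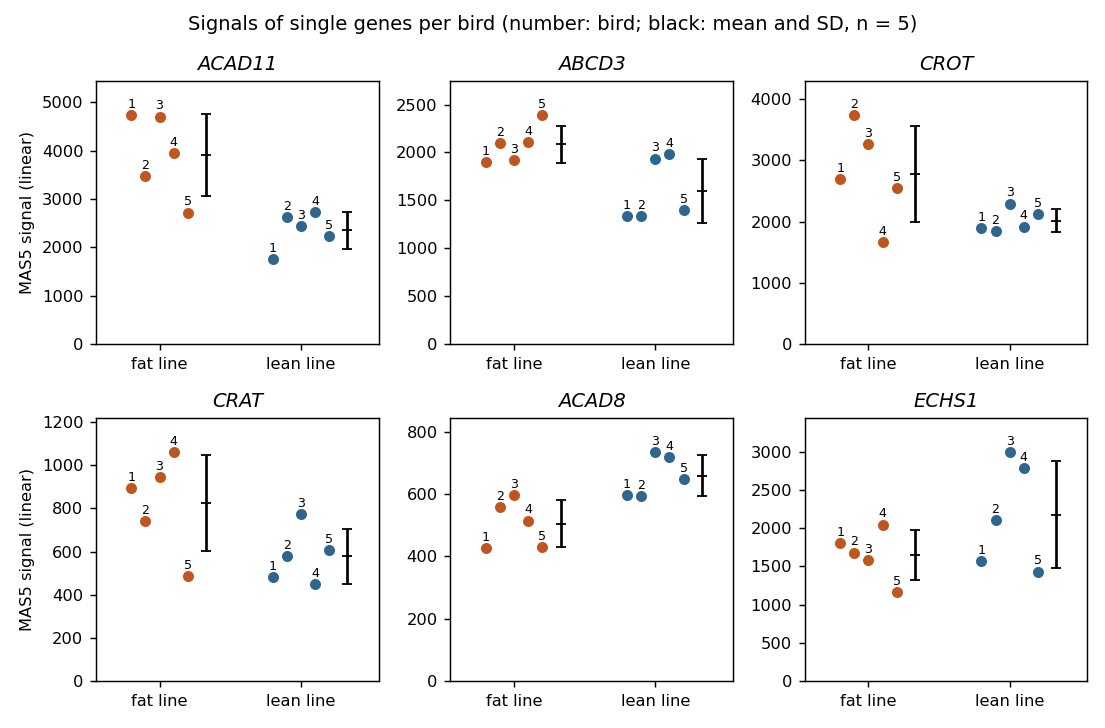
MAS5 signal on a linear scale (y axis) of ACAD11, ABCD3, CROT, CRAT, ACAD8 and ECHS1 in each bird, fat line left and lean line right, with bird numbers beside the points and mean and SD in black (n = 5). The lines overlap in all 6 genes, in ACAD11 only through fat line 5 and in CROT only through fat line 4.

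The later peroxisomal steps varied unevenly between birds, from a 1.49-fold span in HSD17B4 to a 7.37-fold span in ACAA1. SCP2, the thiolase and sterol carrier protein, had 5333 to 11028 in the fat line and 5936 to 13756 in the lean line, with a log2 fold of 0.06, and its other 4 probe sets gave 0.78 to -0.19. HSD17B4, the bifunctional enzyme of branched and very long chains, ranged from 5069 to 7559.9 (0.11), and EHHADH, the bifunctional enzyme of straight chains, from 573.7 to 1033 (-0.01).

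ACAA1, the peroxisomal thiolase, spread the most of all 32 genes. It had 266.8, 256.7, 249.1, 85.4 and 43.1 in fat line 1 to 5, against 265.2, 277.6, 97.4, 95.9 and 317.5 in lean line 1 to 5. Each line split into high and low birds, and the split followed the wash runs, with 249.1 to 317.5 in the 6 birds of runs 2 and 3 and 43.1 to 97.4 in the 4 birds of runs 1 and 4. The log2 fold between the lines was -0.36 (SE 0.56). This split was noticed after the values were seen, and whether the run or the birds made it was not tested.

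Among the peroxisomal auxiliary genes, DECR2, the peroxisomal dienoyl-CoA reductase, had the smallest spread within lines of the 32 brightest probe sets. That probe set had 1092 to 1562 over the birds and a log2 fold of -0.09. The dimmer DECR2 probe set spread widely, from 22.3 to 328.4, with a log2 fold of 0.61 (SE 0.72). PECR, the trans-enoyl-CoA reductase, had 2448, 2665, 2291, 1940.1 and 2563 in fat line 1 to 5, against 2293, 2570.3, 1393, 2013 and 1737 in lean line 1 to 5. The fat line lay in and just above the upper part of the lean line's range. Its log2 fold came to 0.27 (SE 0.17, limma adjusted p = 0.77), and 0.58 within scan day 3 (limma adjusted p = 0.76).

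Alpha oxidation and the racemase prepare branched chains for the spiral. HACL1, the lyase that removes the carbon in alpha oxidation, had 830.9, 612.1, 625.2, 743.9 and 453.4 in fat line 1 to 5, against 338.2, 706.2, 395.2, 240.1 and 596.1 in lean line 1 to 5. Lean line 2 and 5 were within the range of the fat line and the other 3 lean line birds below it. The log2 fold was 0.60 (SE 0.28, limma adjusted p = 0.68). Its dimmer probe sets gave 0.74 (SE 0.46, limma adjusted p = 0.77) and 0.10 (SE 0.31, limma adjusted p = 0.97). In the first of these, fat line 1 to 5 had 135.2, 144.9, 158.7, 549.0 and 201.7, against 79.8, 147.7, 140.2, 215.0 and 75.8 in lean line 1 to 5, so that fat line 4 alone stood out. The second had 319.2, 144.3, 213.4, 272.0 and 286.9 in fat line 1 to 5, against 195.5, 354.5, 200.1, 193.2 and 205.8 in lean line 1 to 5, where lean line 2 was the highest bird. PHYH, the hydroxylase of phytanic acid, ranged from 2159 to 5382 (0.03), and AMACR, the racemase, from 1219.9 to 1939 (-0.04).

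The 3 genes of both organelles had the widest gap of any group. ACAD11, a dehydrogenase of long and very long chains, had 4731, 3469.9, 4706, 3949 and 2719 in fat line 1 to 5, against 1765, 2630.3, 2434, 2731 and 2243 in lean line 1 to 5. All fat line birds but fat line 5 lay above every lean line bird, and fat line 5 lay just below lean line 4. The mean was 3915 ± 855 in the fat line and 2361 ± 382 in the lean line (SD, n = 5 each), a 1.64-fold difference in geometric means. Its fold on the log2 scale was 0.72 (SE 0.18, limma adjusted p = 0.32), the smallest p of the panel, and it stayed between 0.62 and 0.84 with each bird left out in turn. It was 0.61 with the scan day as a block, 0.59 with the wash run as a block and 0.84 within scan day 3. Within scan day 1, which held only fat line 5 and lean line 4, it was -0.01.

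CRAT, the carnitine acetyltransferase, had 893.7, 739.9, 943.4, 1061 and 487.1 in fat line 1 to 5, against 481.7, 580.5, 774.0, 447.6 and 605.1 in lean line 1 to 5. Fat line 5 lay among the lean line birds and lean line 3 among the fat line birds. On the log2 scale the fold was 0.49 (SE 0.23, limma adjusted p = 0.68), while a second CRAT probe set gave 0.10 (SE 0.25, limma adjusted p = 0.96). That probe set had 350.5, 236.2, 355.5, 464.3 and 278.4 in fat line 1 to 5, against 343.6, 250.0, 378.6, 287.0 and 285.9 in lean line 1 to 5, and the lines shared most of their range. With the scan day as a block the brighter probe set gave 0.32. ECI2, the enoyl-CoA isomerase, ranged from 2206 to 3927, with a log2 fold of 0.19.

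Probe sets of the same gene often disagreed. Of the 16 genes with more than 1 probe set, 8 had all of them on the same side of 0 and 8 did not. The genes with mixed directions were SLC25A20, ACAD9, ETFA, ACOT9, ACOX3, EHHADH, SCP2 and DECR2. How bright a probe set is depends on its probes as well as on the RNA, so levels are not compared between genes here. Of the 32 representative probe sets, 17 lay above the 90th percentile of the array by mean log2 signal and 30 above the 50th, ETFA and ACAA1 being the exceptions.

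Several small differences rested on fat line 4. Without that bird the log2 fold of the representative probe set was -0.01 for CPT2, 0.06 for HADH and 0.05 for EHHADH, all with the sign turned. It was 0.22 for PHYH, 0.25 for SCP2, 0.27 for ACAD9, 0.17 for HSD17B4, 0.06 for ACAA2, 0.60 for CPT1A and -0.17 for ACAA1, with the sign kept. ACOT9 and AMACR, at -0.02 and -0.01, came close to 0. Among the dimmer probe sets, the last of ACOX3 gave -0.62, the first of HACL1 0.38 and its second 0.05. Those of ACOX2 (0.14) and CRAT (-0.02) changed sign, as did an SCP2 probe set (from -0.07 to 0.01). The third CPT1A probe set gave 1.03 and the dimmer one of SLC25A20 0.04.

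**Figure D3:**
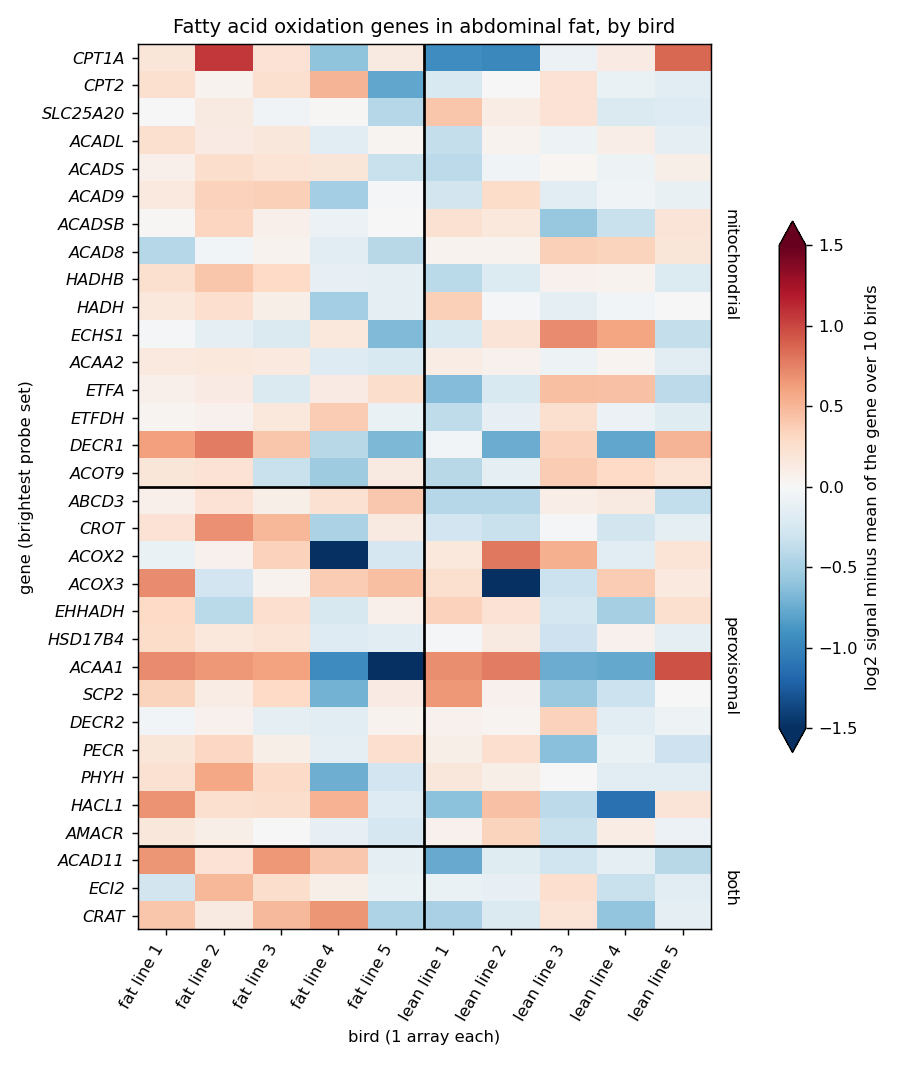
Deviation of each gene's log2 signal from its mean over the 10 birds (colour, cut at 1.5 either way), with the 32 genes in rows by compartment and the birds in columns, fat line left of lean line. Fat line 1 to 3 are mostly above the mean (6, 4 and 5 genes below it) and fat line 4 and 5 mostly below (20 genes each).

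The compartments were then compared bird by bird, as the mean deviation of the log2 signals of their genes from the 10-bird mean of each gene. The mitochondrial level was 0.12, 0.26, 0.10, -0.12 and -0.21 in fat line 1 to 5 and -0.20, -0.10, 0.12, 0.02 and 0.01 in lean line 1 to 5. The peroxisomal level was 0.29, 0.19, 0.22, -0.32 and -0.12 in fat line 1 to 5 and 0.09, 0.05, -0.20, -0.22 and 0.04 in lean line 1 to 5. In either compartment fat line 1 to 3 were high, fat line 4 and 5 were low, and the lean line birds lay between or beside them. The fat line averaged 0.06 higher in the mitochondrial level and 0.10 higher in the peroxisomal level, less than the SD of the fat line birds (0.19 and 0.26).

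Mitochondrial minus peroxisomal level, the measure of a shift between the organelles, was -0.17, 0.07, -0.12, 0.20 and -0.09 in fat line 1 to 5 and -0.28, -0.14, 0.32, 0.24 and -0.03 in lean line 1 to 5. The means were -0.02 ± 0.15 in the fat line and 0.02 ± 0.25 in the lean line (SD, n = 5 each), and the lines overlapped over the whole range of the fat line. The difference of -0.04 was -0.15 within scan day 3 and -0.33 between the 2 birds of scan day 1. It was -0.20 with the scan day as a block and -0.15 with the wash run as a block. It changed sign to 0.03 without lean line 3, to 0.01 without lean line 4, and to 0.02 when the genes of both organelles were counted as mitochondrial. By wash run, the level difference per bird was -0.09 to 0.24 in run 1 and -0.28 to -0.14 in run 2. In run 3 it was -0.17 to 0.07 and in run 4 0.20 to 0.32, so run 4 overlapped neither run 2 nor run 3. Whether the run or the birds made this was not tested.

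Birds of the same line differed by more than the line means did. The peroxisomal level was -0.22 and -0.12 in the 2 birds of run 1 and -0.32 and -0.20 in those of run 4, against 0.05 to 0.09 in run 2 and 0.04 to 0.29 in run 3. Without ACAA1 the ranges were -0.18 to 0.03 in run 1, -0.27 to -0.15 in run 4, -0.01 to 0.03 in run 2 and -0.04 to 0.25 in run 3, so that runs 1, 2 and 3 then overlapped. By run, the mitochondrial level was -0.21 to 0.02 in run 1 and -0.20 to -0.10 in run 2. It was 0.01 to 0.26 in run 3 and -0.12 to 0.12 in run 4. Here runs 1 and 4 overlapped the other runs, while runs 2 and 3 did not overlap each other. Fat line 2 and lean line 3, with the highest mitochondrial levels next to fat line 1, were also 2 of the 3 birds with high skeletal muscle genes (1.60 and 2.54), while lean line 5, with the most (3.03), had a mitochondrial level of 0.01. This order depended on the scaling. With all arrays scaled to the same median, the mitochondrial level was 0.45 in fat line 2, 0.28 in fat line 3, -0.006 in lean line 3 and 0.12 in lean line 5. The part of muscle tissue in these levels was not tested.

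**Figure D4:**
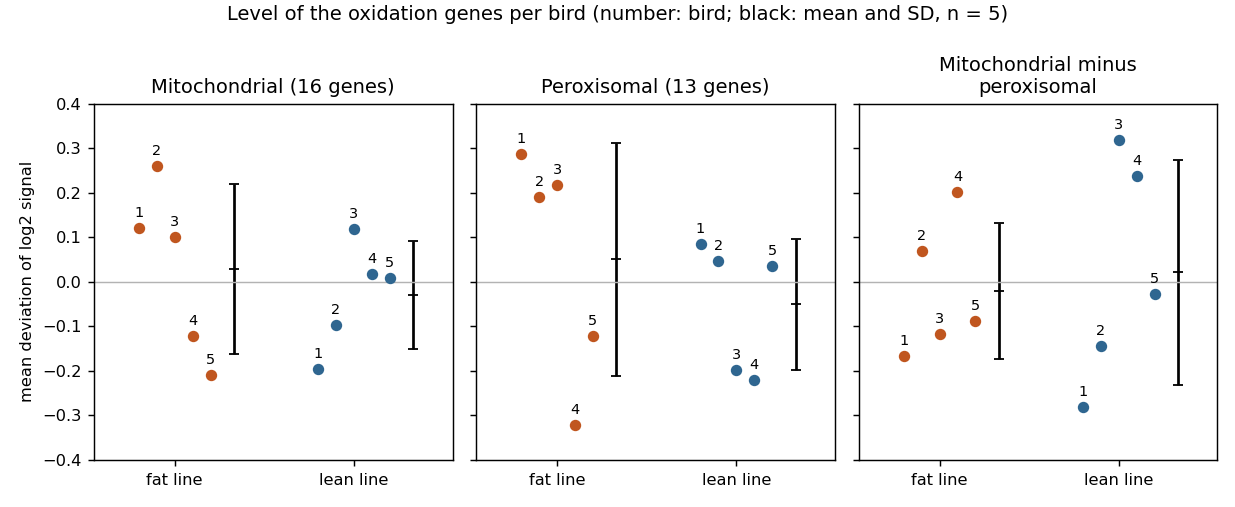
Mitochondrial level (16 genes), peroxisomal level (13 genes) and their difference per bird, as mean deviation of log2 signal (y axis), fat line left and lean line right, with bird numbers and mean and SD in black (n = 5). Fat line 1 to 3 sit above 0 and fat line 4 and 5 below in both levels, and the lines overlap in all 3 panels.

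Once the mean of each line had been subtracted, mitochondrial genes covaried weakly over the 10 birds, with a mean Pearson r of 0.20 over 120 pairs, and so did peroxisomal genes, with 0.15 over 78 pairs. Between the compartments the mean r was 0.10 over 208 pairs, and over all pairs of genes on the array it was 0.004. These are descriptions over the same 10 birds, arrays and runs. Without fat line 4 the mean r was 0.23 within the mitochondrial genes, 0.06 within the peroxisomal genes and 0.07 between them. After quantile normalization of the arrays it was 0.18, 0.08 and 0.05. Within a compartment the closest pair was HSD17B4 and AMACR (r = 0.90). Other pairs were opposed, most of all ACADSB and ETFA (-0.83) and, among peroxisomal genes, ABCD3 and ACAA1 (-0.82).

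Further oxidation genes were taken from lists set up by function. Here the peroxisomal list had the higher median, whereas in the panel the mitochondrial genes had it (0.13 against 0.06). Of 16 other mitochondrial genes on the array, 8 were higher and 8 lower in the fat line (median log2 fold 0.04), and of 15 other peroxisomal genes 11 were higher and 4 lower (0.14). None passed the adjusted threshold. The smallest p values belonged to ACSF3, ABCD4 and AGPS. ACSF3, a mitochondrial acyl-CoA synthetase, had 84.4 to 183.8 in the fat line and 22.7 to 112.1 in the lean line (log2 fold 1.21). ABCD4, of the same family as ABCD3, was counted in the peroxisomal list (384.0 to 540.8 and 189.8 to 400.7, log2 fold 0.56). AGPS of ether lipid synthesis had 535.8 to 589.3 and 337.1 to 574.6 (log2 fold 0.40). The hydrolase NUDT19, counted in the mitochondrial list, was lower (313.5 to 726.3 in the fat line, 646.3 to 1060.3 in the lean line, log2 fold -0.49). In which organelle the proteins of these lists work was not checked here, so the counts hold for the lists as drawn up.

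The peroxins build and divide peroxisomes. Among 13 measured, the fat line was higher in 6 and lower in 7 (median log2 fold -0.01). PEX11A, which takes part in peroxisome division, stood out among them. It had 809.1, 1343, 1055, 1043 and 427.7 in fat line 1 to 5, against 201.8, 428.9, 337.7, 499.9 and 672.1 in lean line 1 to 5. All fat line birds but fat line 5 lay above every lean line bird, the same exception as in ACAD11. Its log2 fold came to 1.14 (SE 0.33, limma adjusted p = 0.43). PEX11G, of the same family, had 59.7 to 434.7 in the fat line and 29.3 to 293.5 in the lean line.

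Of 23 regulators of fatty acid oxidation, 11 were higher and 12 lower in the fat line (median log2 fold -0.02), and 0 passed the adjusted threshold. The receptor PPARG, the master regulator of adipocytes, had 6013, 4003, 6406, 5283 and 4038 in fat line 1 to 5, against 4469, 3232, 3019, 3816 and 2411 in lean line 1 to 5. Lean line 1 alone reached into the range of the fat line, and the log2 fold was 0.61 (SE 0.19, limma adjusted p = 0.46). Its partner RXRA had 342.5 to 644.4 in the fat line and 123.8 to 386.7 in the lean line (log2 fold 0.96, limma adjusted p = 0.55). PPARA, the receptor best known for driving these enzymes in liver, and the coactivator PPARGC1A, both picked after their values were seen, had log2 folds of 0.17 and -0.18.

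Marker genes were counted in the same way. Of 13 adipocyte genes, 10 were higher in the fat line, with a median log2 fold of 0.32. The fatty acid transporter CD36 had 26935 to 35623 in the fat line and 20873 to 26311 in the lean line, with no overlap (log2 fold 0.41, limma adjusted p = 0.52). Adiponectin, ADIPOQ, named after its values were seen, went the other way, with 5331 to 11065 in the fat line and 9870.2 to 12919.7 in the lean line (log2 fold -0.58, limma adjusted p = 0.54). The fat line was lower in 22 of 24 skeletal muscle genes (median -1.30), 9 of 9 smooth muscle genes (-1.10), 20 of 23 liver genes (-1.11) and 11 of 13 intestine genes (-0.43). Of these, DES (98.2 to 512.4 and 271.1 to 2124), ACTG2 (289.8 to 560.8 and 503.5 to 6818), TNNC1, FABP1, AHSG and SLC15A1 were lower in the fat line, and LGALS3 of the intestine list was higher. Of 13 macrophage genes, 5 were higher and 8 lower (-0.05), with C1QC and C1QB lower, and of 12 endothelial genes 9 were higher and 3 lower (0.19), with ESAM higher and ERG lower. None of the 11 lists held a gene that passed the adjusted threshold. The share of these tissues in the differences between the lines was not tested.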

How the data were processed

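Abdominal fat RNA of 10 birds was measured on 1 array per bird, and lines and replicate numbers were taken from the labels. The deposited intensity values are MAS5 signals that the authors scaled per array (per the labels), without detection calls, so that low signals do not show presence. The number of arrays limits the precision. The labels name Trizol extraction and the study's methods a column kit for fatty tissue. The deposited scan headers gave scan day and scanner. The wash runs were inferred from the hybridisation times in the headers, where a gap over 1 hour began a new run. Whether birds were scanned in the order of extraction is not given in the sources used here.

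Of 38535 probe sets, 96 controls were left out. The array annotation gave 27168 probe sets 1 symbol, 177 several and 11094 none. Log2 signals of the fat and lean lines entered a linear model in limma 3.58.1 under R 4.3.3 (lmFit, eBayes with intensity trend, two-sided, Benjamini-Hochberg over 38439 probe sets, threshold 0.05). Tables were made with Python 3.11.15, numpy 2.4.6 and pandas 2.3.3. SAM with delta 0.8 and 100 permutations, coded anew in R, was an alternative. The scripts were tested on simulated data (seed 193). Others were quantile and median scaling, 50 added to signals, a floor of 100, the brighter probe sets, no trend, blocks for replicate, scan day and wash run, each bird left out, all probe sets of a gene averaged, the genes of both organelles moved, and probe sets that can match several transcripts left out. Scan day 3 alone and ranges without fat line 4 were added after seeing the data. The study's own screen left out a bird that the labels do not name, so all 10 were kept.

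The members and lists were chosen with earlier results of these data known, so no list was tested. Per-bird values, fold, SE and adjusted p are given for the 12 genes of smallest p, and for their other probe sets, and by this rule up to 2 genes of smallest p are named per further list. FABP4, PLIN1, ADIPOQ, PPARA, PPARGC1A and further values of other members were added after their values were seen.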

Additional observations from a re-analysis of the deposited data

Results flagged for a closer look

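In 120 sets of 5 birds (the 58 probe sets and the 2 compartment levels, in each line, on the log2 scale), 8 held a bird far from its line by Dixon's test, which chance alone does in about 1 of 20. Fat line 4 was that bird in 4 of the 8. It was low in an ACOX3 probe set (46.6, the other fat line birds 206.5 to 250.9), in SCP2 (5333, the others 9466 to 11028) and in the dimmer DECR2 probe set (80.2, the others 166.1 to 195.6), and high in a HACL1 probe set (549.0, the others 135.2 to 201.7). Lean line 1 was high in HADH (5689, the other lean line birds 4009.7 to 4429). Lean line 2 was high in another HACL1 probe set (354.5, the others 193.2 to 205.8) and low in the dimmer ACADSB probe set (12.8, the others 78.8 to 140.8), and lean line 3 was low in an EHHADH probe set (259.3, the others 463.5 to 557.7).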

How the results depend on the processing

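The 12 genes of smallest p all kept their direction and stayed short of the adjusted threshold in 240 of 240 recalculations over 20 settings. The lowest adjusted p was 0.18 (ACAD11 without fat line 5). These 12 were picked by smallest p in the main fit, and the settings share most of the data. Outside the 12, directions did turn. ACAA1, also given by bird, turned to 0.15 on scan day 3 alone. The brightest CPT1A probe set gave -0.12 and -0.30 with scan day and wash run as blocks, and -0.17 on scan day 3 alone. No intensity trend, the replicate block and the brighter probe sets leave each fold as it was, so there the direction could not change. No member was called in any setting. The 6 higher member probe sets of unadjusted p under 0.05 became 3 with signals under 100 set to 100 and with no intensity trend, and 3 to 6 with each bird left out. The 1 lower became 0 with median scaling, no intensity trend, the replicate block and scan day 3 alone, and 0 to 1 with each bird left out. Probe sets called over the array were 0 to 2 with each bird left out, 2 without lean line 5 and 2 without fat line 4. The peroxisomal median log2 fold of 0.06 was 0.29 on scan day 3 alone, and 0.18 and 0.11 with scan day and wash run as blocks, where the mitochondrial median was 0.00 and 0.02. With each bird left out, the mitochondrial median was 0.07 to 0.15, the peroxisomal median -0.01 to 0.22 and the difference in mean log2 fold -0.12 to 0.03. The peroxisomal median was 0.22 without fat line 4, and below 0 without fat line 1 (-0.01), fat line 3 (-0.002) or lean line 4 (-0.01). Of the probe sets with an unadjusted p under 0.05, 45.9% were higher in the fat line, 62.0% with median scaling and 56.5% with quantile normalization. The causes were not tested.

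Same-numbered birds of the lines did not deviate together (r from -0.14 to 0.06). The labels state no pairing by number, and these correlations cannot settle whether there was one. With the replicate block the smallest member adjusted p was 0.42, and 2591 in place of 2835 probe sets had an unadjusted p under 0.05. No fat line bird correlated best with the lean line bird of its own number.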
